A study of Harpegnathos saltator with 14 samples.

Results

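Adult and larval bodies of the ant Harpegnathos saltator were compared over 8 RNA-seq libraries of the 14 in the series, 4 from adults and 4 from larvae. The adult side held 2 libraries of males and 2 of adult workers, and the larval side held 2 libraries of instar 4 and 2 of instar 1. The libraries were chosen by their labelled stage, with no measured value used. Each library was made from poly(A) RNA of whole bodies of ants kept in plaster nests on a light and dark cycle and fed live crickets. The male label names no stage beyond "male", so that these animals were adults is taken from the grouping and not from the label. The labels give no age, colony, strain, number of pooled animals or sex of the larvae, and name no genotype or treatment that differs between the groups. Nothing says that the 2 libraries of a group came from separate animals, so p-values measure the spread between libraries, which may be technical. Whole bodies were sampled, so fewer cells of a type and less RNA per cell cannot be told apart.

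Ants pass through complete metamorphosis: a legless larva that eats and grows is taken apart in the pupa and rebuilt as the adult. Larval bodies are known for gut, fat body and the storage proteins that feed the pupa, and adult bodies for cuticle, muscle, eyes and antennae. Males and workers add their own programs, since males make sperm and fly while workers forage and tend brood. The files give identifiers with no gene names, and the reference table holds no matching entry, so the functions of the genes below, and any markers of tissue or sex, were not examined. Gene models numbered 20755, and at most 2 identifiers higher and 2 lower are named for each comparison.

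Reads in genes of the 8 libraries ran from 4284417 in male replicate 2 to 12000092 in worker replicate 1. The 10 most abundant genes took 10.7% and 17.7% of gene reads in males, 27.0% and 22.1% in workers, 60.4% and 61.4% in instar 4 larvae, and 13.8% and 16.2% in instar 1 larvae. Their mean share was 19.4% ± 6.91 in adults and 37.9% ± 26.5 in larvae (SD, n = 4 each; exact two-sided permutation p = 0.343, where 0.0286 is the smallest these libraries allow). Between 9470 and 10158 genes reached 1 RPKM in adults, and between 8860 and 9710 in larvae (exact two-sided permutation p = 0.0571). Replicates lay closer in workers and instar 4 larvae, where 10 and 35 genes were at least 4-fold apart, than in males and instar 1 larvae, with 247 and 128.

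Adults and larvae differed in 4032 of 11131 genes tested, 36.2% of them, with 2754 higher and 1278 lower in adults (24.7% and 11.5%). The difference was the mean of the male and worker means minus the mean of the 2 instar means on log2(RPKM + 1), a scale that understates the change of low genes. RPKM is the number of reads per kilobase of gene, scaled to the reads of the library. The test was limma's, run on genes that reached 1 RPKM in 2 or more of the 8 libraries, and a gene was called at a Benjamini-Hochberg adjusted p below 0.05. Changes of at least 2-fold were called for 1878 higher and 636 lower genes, of at least 4-fold for 634 and 130, and of at least 16-fold for 102 and 37. All 4 adult libraries lay above all 4 larval libraries for 1624 of the higher genes, and below them for 399 of the lower genes. Among all genes tested, 19.1% showed no overlap in either direction.

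**Figure D1:**
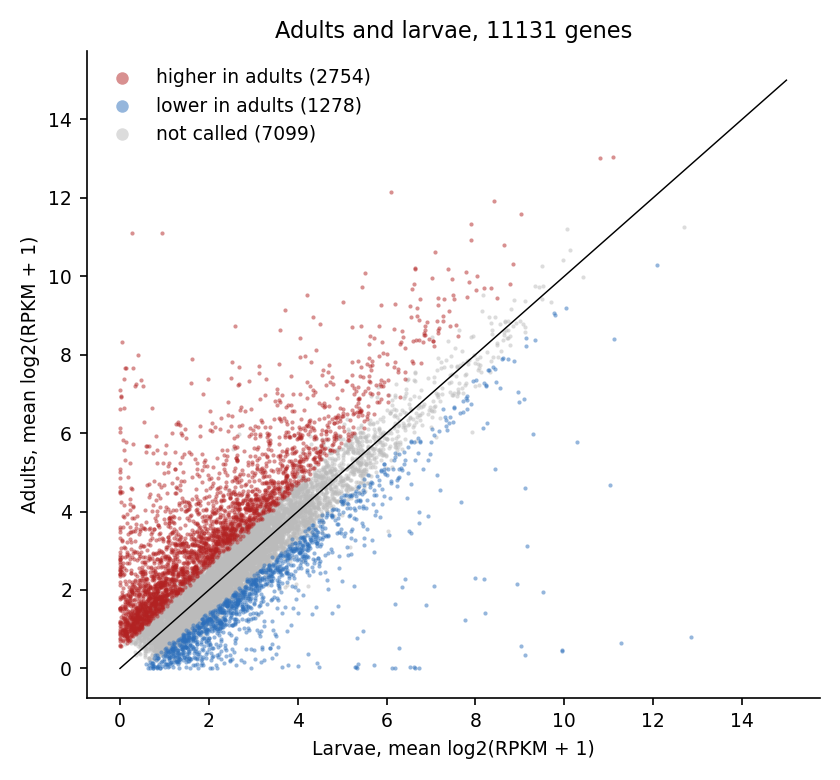
Mean log2(RPKM + 1) of each of 11131 genes in adults (vertical axis, mean of males and workers) against larvae (horizontal axis, mean of both instars), 1 point a gene, with the line of equal values. Red points are the 2754 genes called higher in adults and blue points the 1278 called lower, and the blue points at the lower right are genes abundant in larvae and close to 0 in adults.

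Which direction held the majority depended on how the libraries were scaled. As deposited, the median difference of all genes tested was 0.13. Median scaling gave 2365 genes higher and 2635 lower, quantile scaling 2282 and 2978, and scaling to the reads outside the most abundant genes 2101 and 2778, with medians of -0.09, -0.13 and -0.16. Of the 2754 higher and 1278 lower genes called as deposited, 1993 and 1268 were called in the same direction under all 4 scalings. The other scalings thus lost part of the higher genes and added many lower ones. Yet 0 called genes turned to a call of the opposite sign under any of the other 3. Of the 634 and 130 genes changed at least 4-fold, 628 and 130 were called under all 4 scalings. Taking adults and larvae as 2 groups of 4 libraries, so that the differences between males and workers and between instars count as spread, gave 1074 higher and 183 lower genes. Without worker replicate 1 limma called 2650 genes, and without worker replicate 2 it called 2654.

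**Figure D2:**
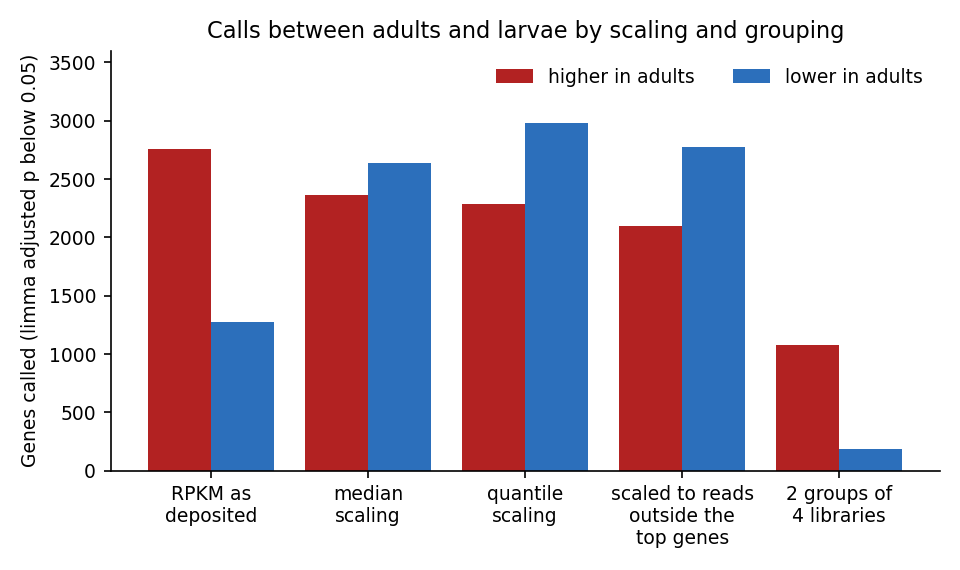
Number of genes called higher (red) and lower (blue) in adults by limma at an adjusted p below 0.05, as bars from 0, under 4 scalings of the libraries and with 2 groups of 4 libraries. The higher genes are the majority at 2754 against 1278 with RPKM as deposited and at 1074 against 183 with 2 groups of 4 libraries, and the lower genes under the other 3 scalings.

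The genes named for the pooled comparison were abundant on one side and close to 0 on the other. HSALG012731.2 stood at 2803 and 649 RPKM in males and 3556 and 3716 RPKM in workers, against 0.242 and 0.259 RPKM in instar 4 larvae and 0.257 and 0.0647 RPKM in instar 1 larvae. Each larval library held between 1 and 5 of its reads, and male replicate 2 was the lowest of the adult libraries. Its log2 difference was 10.85 ± 0.40 (SE; limma, adjusted p = 7.23e-08), with a mean of 2681 ± 1412 RPKM in adults and 0.206 ± 0.0943 RPKM in larvae (SD, n = 4 each).

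HSALG012315.1 stood at 3361 and 707 RPKM in males and 2988 and 3253 RPKM in workers, against 0.537 and 0.321 RPKM in instar 4 larvae and 1.48 and 1.66 RPKM in instar 1 larvae. Male replicate 2 was again the lowest adult library, and the sides did not overlap. The log2 difference was 10.16 ± 0.42 (SE; limma, adjusted p = 1.35e-07). Both genes were also above their larval levels in late pupae, HSALG012731.2 at 78.9 and 18.97 RPKM and HSALG012315.1 at 80.9 and 43.8 RPKM, all below the lowest adult library.

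HSALG004476.2, named first among lower genes, stood at 0.815 and 2.21 RPKM in males and 0.355 and 0.160 RPKM in workers, against 1715 and 10672 RPKM in instar 4 larvae and 13461 and 11901 RPKM in instar 1 larvae. The lowest larval value was that of instar 4 replicate 1, and it lay far above the highest adult value. The log2 difference was -12.05 ± 0.49 (SE; limma, adjusted p = 1.31e-07), from a mean of 0.884 ± 0.923 RPKM in adults and 9437 ± 5273 RPKM in larvae (SD, n = 4 each).

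HSALG005522.2 stood at 0.565 and 1.02 RPKM in males and 0.316 and 0.498 RPKM in workers, or 3 to 4 reads a library, against 1277 and 1493 RPKM in instar 4 larvae and 3028 and 6472 RPKM in instar 1 larvae. All larval libraries were high, and the instar 4 pair lay below the instar 1 pair. Its log2 difference was -10.61 ± 0.28 (SE; limma, adjusted p = 3.41e-08). In late pupae the gene stood at 3.51 and 2.17 RPKM, close to adults, while the early pupa libraries went apart at 5.50 and 240 RPKM.

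On RPKM as deposited, genes that were off on one side and on in each library of the other were more frequent on the adult side. The counts below, out of 11131 genes tested, were not repeated under the other scalings, under which the majority of calls turned to lower genes. At least 10 RPKM in each of the 4 adult libraries with less than 1 RPKM in each larval library was found for 31 genes. The reverse, at least 10 RPKM in each larval library and less than 1 in each adult library, was found for 6 genes. With a minimum of 1 RPKM on the high side the numbers were 287 and 68. Of the 31 genes of adults, 14 and 17 reached 1 RPKM in the late pupa libraries and 16 and 2 in the early pupa libraries. Of the 6 genes of larvae, 1 and 2 did in late pupae and 2 and 6 in early pupae. In the embryo libraries 8 and 7 of the 31 and 4 and 5 of the 6 did. Of all 20755 gene models, 10344 and 10849 reached 1 RPKM in late pupae, 11133 and 9664 in early pupae and 10730 and 10412 in embryos.

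The called genes made up much of the RNA on the side where they were high. Genes called higher in adults took 54.8% and 62.5% of gene reads in males and 58.3% and 52.1% in workers, against 7.09% and 7.37% in instar 4 and 13.5% and 14.5% in instar 1 larvae. Genes called lower in adults took 4.61% and 3.72% in males and 5.78% and 6.61% in workers, against 63.2% and 62.9% in instar 4 and 32.2% and 36.2% in instar 1 larvae. These shares follow from the choice of the genes in the same 8 libraries and are given as a description. The other 6 libraries took no part in that choice. There the genes higher in adults took 14.6% and 17.1% of gene reads in embryos, 19.7% and 7.33% in early pupae, and 22.9% and 18.3% in late pupae. Those lower in adults took 15.6% and 15.2% in embryos, 16.9% and 60.8% in early pupae, and 9.74% and 12.1% in late pupae. Neither set took more than 22.9% in late pupae, and early pupa replicate 2 had shares near those of instar 4 larvae. Its top 10 genes took 58.7% of gene reads, against 14% in early pupa replicate 1.

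**Figure D3:**
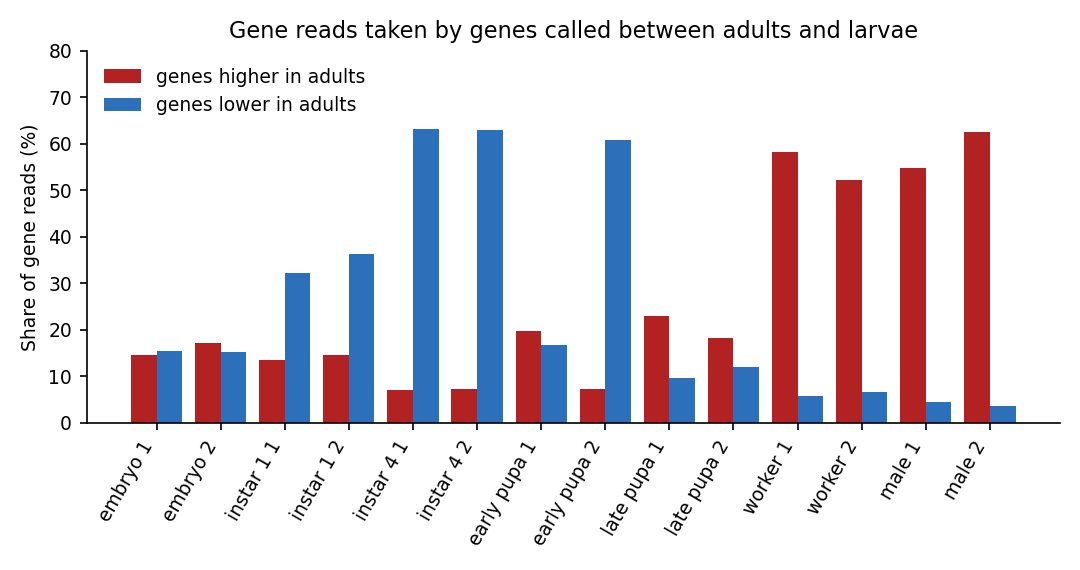
Share of gene reads in percent (bars from 0) taken by genes called higher (red) and lower (blue) in adults, for each of the 14 libraries in order of development with males last. The red bars of the 4 worker and male libraries lie between 52.1% and 62.5%, and the blue bars of both instar 4 libraries and of early pupa replicate 2 above 60%.

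Each adult group was also set against larvae alone. Males differed from larvae in 3713 genes (33.4%), with 2521 higher and 1192 lower (22.6% and 10.7%). Workers differed from larvae in 2857 genes (25.7%), with 2005 higher and 852 lower (18.0% and 7.65%). With library weights, which count libraries of larger spread for less, this order turned, at 2495 genes for males and 4125 for workers. The median of all genes was 0.17 for males and 0.10 for workers. The majority depended on scaling here too. Males had 2166 genes higher and 2387 lower under median scaling, 2103 and 2714 under quantile scaling and 1967 and 2328 scaled to reads outside the top genes. Workers had 1918 and 1912, 1905 and 2326, and 1621 and 2178 under these scalings. These comparisons share the 4 larval libraries, so their overlap is not given. Over the 2754 genes called higher in adults, the median log2 difference from larvae was 1.37 in males and 1.21 in workers, and over the 1278 lower genes it was -1.07 and -0.94. Among the higher genes, 1624 had both adult groups clear of all larval libraries, 490 only males, 435 only workers and 205 neither. Among the lower genes these numbers were 399, 233, 165 and 481, so that having neither group clear was the most frequent case there. Over all genes tested, 32.0% had males and 32.2% had workers clear of the larvae in either direction. The count for workers was 1247 without worker replicate 1, 1066 without worker replicate 2 and 1900 without instar 4 replicate 1.

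The adult groups themselves differed in 959 of all genes tested (8.62%), 518 higher and 441 lower in males than in workers (4.65% and 3.96%). Their libraries did not overlap for 58.4% of genes, a share that 2 libraries a group make easy to reach. Of genes called higher in adults 20.8% differed between males and workers, 343 higher and 230 lower in males. Of genes called lower in adults 5.947% did, 30 higher and 46 lower in males, and of genes not called 4.37%. The median adult mean was 10.2 RPKM over genes called higher, 2.33 over those called lower and 4.85 over those not called. The scale of log2(RPKM + 1) understates differences of low genes. A gene high in a single adult group can also enter the higher list through that group. The part of both in these shares was not tested. The count for males against workers rested on the libraries used. It was 205 and 170 without worker replicate 1 or 2, 555 and 566 without instar 4 replicate 1 or 2, and 1610 and 1609 without instar 1 replicate 1 or 2. Neither these groups nor the instars differed by the test for 1528 of the higher genes (55.5%) and 374 of the lower ones (29.3%), against 51.1% of all genes tested. The share of the higher genes lay near that of all genes and the share of the lower genes below it, though a p that misses the threshold does not show that they are alike. A gene high in a single instar can enter the lower list through that instar. The part of such genes in the share of the lower genes was not tested.

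HSALG008444.1 was carried by males alone within the adults. It stood at 4235 and 1777 RPKM in males against 0.150 and 0 RPKM in workers, 0 and 0 RPKM in instar 4 larvae and 0.143 and 0.288 RPKM in instar 1 larvae. None of these 6 libraries outside the males held more than 2 reads. The log2 difference was 11.28 ± 0.35 between males and larvae, and -0.04 ± 0.35 between workers and larvae (SE; limma, adjusted p = 5.53e-08 and 0.951). Averaging both adult groups gave 5.62 and a call (limma, adjusted p = 5.56e-07).

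HSALG009060.1 stood at 2104 and 8448 RPKM in males against 5.53 and 3.85 RPKM in workers, 1.17 and 1.13 RPKM in instar 4 larvae and 2.02 and 5.01 RPKM in instar 1 larvae. Workers overlapped the larvae, and male replicate 2 was the higher of the male libraries. The difference between males and larvae was 10.44 ± 0.51 on the log2 scale (SE; limma, adjusted p = 5.85e-07).

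HSALG013889.2 and HSALG010224.2 were low in males and high in workers. HSALG013889.2 stood at 2.12 and 0.682 RPKM in males and 1846 and 1827 RPKM in workers, against 4.28 and 233 RPKM in instar 4 larvae and 1220.3 and 2315 RPKM in instar 1 larvae. The males lay only just below instar 4 replicate 1, and the instar 4 libraries were far apart. Its log2 difference between males and larvae was -6.73 ± 1.13 (SE; limma, adjusted p = 0.00161), and its pooled difference of -1.91 was not called (limma, adjusted p = 0.133).

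HSALG010224.2 stood at 4.45 and 0.981 RPKM in males and 351 and 348 RPKM in workers, against 52.4 and 296 RPKM in instar 4 larvae and 1443 and 624 RPKM in instar 1 larvae. The worker values lay inside the larval range and the male values below it. The log2 difference between males and larvae was -6.72 ± 0.66 (SE; limma, adjusted p = 6.20e-05).

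Among genes of workers, HSALG012048.2 stood at 20.8 and 35.3 RPKM in males and 909 and 1013 RPKM in workers, against 0.814 and 0.261 RPKM in instar 4 larvae and 0.323 and 0.217 RPKM in instar 1 larvae. Both adult groups were clear of the larvae, at very different levels. The log2 difference from larvae was 9.44 ± 0.30 in workers (SE; limma, adjusted p = 6.07e-08) and 4.34 ± 0.30 in males.

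HSALG011967.1 stood at 1.94 and 0 RPKM in males and 610.4 and 601 RPKM in workers, and held 0 reads in each of the 4 larval libraries. Embryos and early pupae had 0 RPKM of it as well, and late pupae 0 and 0.0676 RPKM. Workers were at least 1063-fold higher than larvae, over a floor of 3 reads in 1 library, which covers counting error only (limma, adjusted p = 2.95e-07).

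HSALG003338.2 ran the other way. It stood at 1005 and 485 RPKM in males and 3.84 and 2.70 RPKM in workers, against 835 and 967 RPKM in instar 4 larvae and 2322 and 1315 RPKM in instar 1 larvae. Male replicate 1 lay inside the larval range and male replicate 2 below it, while the workers lay far below both. The log2 difference between workers and larvae was -8.21 ± 0.38 (SE; limma, adjusted p = 4.26e-07), whereas the male difference of -0.84 ± 0.38 was not called (limma, adjusted p = 0.112). Embryos had 8.22 and 94.3 RPKM of it, and late pupae 138 and 156 RPKM.

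HSALG003196.2 was the second gene named as lower in workers, at 8.14 and 26.7 RPKM in males and 0.720 and 0.378 RPKM in workers, against 3.90 and 5.18 RPKM in instar 4 larvae and 8586 and 15847 RPKM in instar 1 larvae. Its level in males was above that in instar 4 larvae, and the instar 1 libraries set the larval average. It was called lower in the pooled comparison all the same, with a log2 difference of -5.68 ± 0.36 (SE; limma, adjusted p = 2.68e-06).

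**Figure D4:**
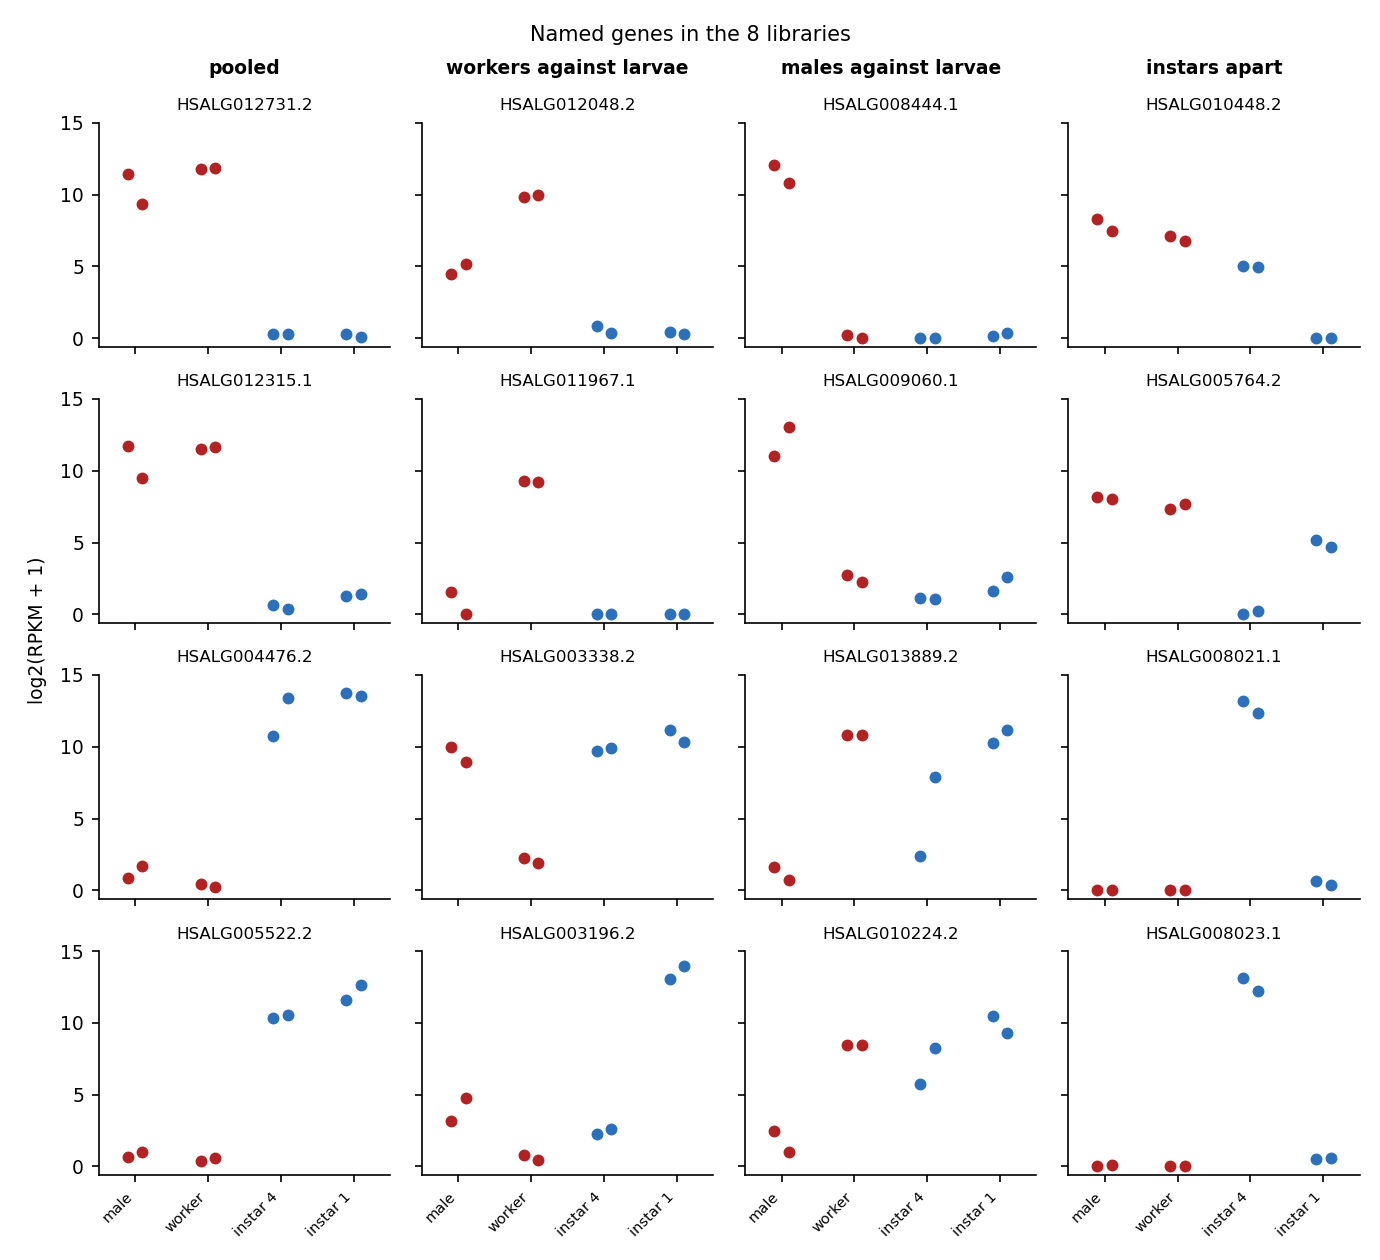
log2(RPKM + 1) of 16 named genes in each of the 8 libraries, 1 point a library, with adults in red and larvae in blue. The columns hold, from left to right, genes named for the pooled comparison, for workers against larvae, for males against larvae, and for genes whose instars differ. The sides are fully apart in the first and last columns, and the male and worker points part in the middle columns.

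For a few genes males and workers departed from larvae in opposite directions, so that the changes offset each other in the pooled average. With both calls made and no overlap with any larval library, 11 genes were higher in workers and lower in males than in larvae, and 4 were higher in males and lower in workers. The 4 became 1 with no filter and 1 with a minimum mean of 5 RPKM, and 5 to 10 with log2(RPKM + 0.1) or another scaling. Leaving out either worker library, or instar 4 replicate 2, ended this second direction. Of these 11 and 4, limma called 2 and 0 in the pooled comparison. The pooled log2 difference ran from -1.75 to 1.51 over the 11 genes, whose males minus workers difference ran from -7.68 to -1.84. Over the 4 genes the pooled difference ran from -0.18 to 0.08 and the males minus workers difference from 1.45 to 2.74. Over all settings tried there were between 4 and 31 such genes, with 7 without worker replicate 1 and 4 without worker replicate 2.

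HSALG012182.2 stood at 0.979 and 0 RPKM in males and 214 and 387 RPKM in workers, against 55.9 and 61.4 RPKM in instar 4 larvae and 94.8 and 61.3 RPKM in instar 1 larvae. The larvae formed a narrow band with males below and workers above it. Relative to larvae the log2 difference was -5.59 ± 0.38 in males and 2.09 ± 0.38 in workers (SE; limma, adjusted p = 5.46e-06 and 0.00283). The pooled difference of -1.75 ± 0.31 was called as lower in adults (SE; limma, adjusted p = 0.00174), although workers lay above the larvae. In late pupae the gene stood at 0.580 and 0.565 RPKM, and in embryos at 83.4 and 161 RPKM.

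HSALG023801.1 stood at 8.01 and 4.01 RPKM in males and 1281 and 1442 RPKM in workers, against 31.5 and 196 RPKM in instar 4 larvae and 144 and 253 RPKM in instar 1 larvae. Its pooled difference was -0.38 ± 0.50 (SE; limma, adjusted p = 0.597), while the difference of males minus workers was -7.66 ± 0.71. HSALG001144.1 took the opposite course at low levels, with 7.63 and 14.6 RPKM in males and 0.791 and 0.692 RPKM in workers, against 5.92 and 3.11 RPKM in instar 4 larvae and 3.30 and 3.05 RPKM in instar 1 larvae. Its difference of 2.74 ± 0.38 between males and workers was called (limma, adjusted p = 0.00217) and missed the threshold without worker replicate 2 (limma, adjusted p = 0.0537).

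The larval side was the less uniform one. Instar 4 and instar 1 larvae differed in 4932 genes (44.3%), 1075 higher and 3857 lower in instar 4 (9.66% and 34.7%), and the median of all genes was -0.46. Under median scaling 2393 were higher and 2904 lower in instar 4, under quantile scaling 2470 and 2785, and scaled to reads outside the top genes 2199 and 2722. The median of all genes was then -0.11, -0.07 and -0.09, so the size of the excess of lower genes rested on the scaling. Their libraries did not overlap for 73.2% of genes. Of genes called lower in adults, 68.5% also differed between the instars, with 222 higher and 653 lower in instar 4. Of genes called higher in adults 31.4% did, with 250 higher and 615 lower in instar 4, and of genes not called 44.96%. A gene high in a single instar can enter the lower list through that instar. The median larval mean RPKM was also higher over genes called lower than over those called higher or not called. The scale understates differences of low genes. The part of both in these shares was not tested. Without instar 4 replicate 1 or 2 the count between instars was 2811 and 2822. Over the genes lower in adults the median log2 difference was -0.54 against instar 4 and -1.52 against instar 1. All 4 adult libraries lay below the libraries of both instars for 399 of them, below those of instar 4 alone for 254 and below those of instar 1 alone for 602. Over the genes higher in adults the medians were 1.48 against instar 4 and 1.18 against instar 1. The low RPKM of most genes in instar 4 libraries goes with the large share of reads in their top genes, and its part in these counts was not tested beyond the scalings above.

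HSALG008021.1 and HSALG008023.1, with resolved lengths of 1245 and 1251 bases, were lower in adults and differed between the instars. HSALG008021.1 held 0 reads in each adult library, against 9465 and 5308 RPKM in instar 4 larvae and 0.559 and 0.281 RPKM in instar 1 larvae. HSALG008023.1 stood at 0 and 0.0703 RPKM in males and 0 RPKM in both worker libraries, against 8784 and 4725 RPKM in instar 4 larvae and 0.445 and 0.504 RPKM in instar 1 larvae. Both were near 0 in instar 1, so the larval average rests on instar 4. The mean over larvae of HSALG008021.1 was at least 17442-fold higher than in adults, over a floor of 3 reads in 1 library. The calls of both genes in the pooled comparison were lost with 2 groups of 4 libraries (limma, adjusted p = 0.149 and 0.146). The levels of the pair moved together. Reads of near-identical copies could have been split between them by the counting, but no sequences were at hand and this was not tested. In early pupa replicate 2 they reached 16791 and 14760.1 RPKM, against 34.6 and 33.3 RPKM in replicate 1.

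Among genes higher in adults the instars parted in both directions. HSALG010448.2 stood at 314 and 177 RPKM in males and 137 and 109 RPKM in workers, against 31.5 and 30.5 RPKM in instar 4 larvae and 0 reads in both instar 1 libraries. HSALG005764.2 stood at 290.2 and 265 RPKM in males and 164 and 203 RPKM in workers, against 0 and 0.169 RPKM in instar 4 larvae and 35.0 and 25.2 RPKM in instar 1 larvae. Each larval level of these genes was below each adult level, and the pooled log2 differences were 4.92 ± 0.25 and 5.29 ± 0.22 (SE; limma, adjusted p = 5.31e-07 and 1.58e-07).

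Some genes were close to absent outside 1 of the 4 groups. At least 10 RPKM in both libraries of a group and less than 1 RPKM in the other 6 was found for 20 genes in males, 13 in workers, 19 in instar 4 larvae and 7 in instar 1 larvae. The choice fixes the direction of their pooled difference. Their mean RPKM in the group reached 3006 in males, 392 in workers, 7387 in instar 4 larvae and 251 in instar 1 larvae. Of the 20 genes of males 17 were also below 1 RPKM in each embryo and pupa library, as were 10 of the 13 of workers, 0 of the 19 of instar 4 larvae and 1 of the 7 of instar 1 larvae. These libraries include early pupa replicate 2, whose read shares lay near those of instar 4 larvae. Its part in the 0 of 19 was not tested.

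Embryos and pupae, which took no part in the fit, were placed between larvae and adults on the 634 higher and 130 lower genes that changed at least 4-fold. A position of 0 is the larval and of 1 the adult mean on log2(RPKM + 1). On the genes higher in adults, the median position was 0.00 and 0.03 in the embryo libraries, 0.20 and 0.00 in the early pupae and 0.35 and 0.20 in the late pupae. Of these genes 42.3% and 27.9% lay nearer to adults than to larvae in the late pupae. On the genes lower in adults, the median position was 0.89 and 0.46 in embryos, 0.62 and 0.13 in early pupae and 0.78 and 0.72 in late pupae, with 65.4% and 60% nearer to adults in the late pupae. In the embryo and late pupa libraries alike, the median position was thus nearer to adults on the genes lower in adults than on the genes higher in adults. On these genes the order was therefore not particular to pupae. On genes changed at least 2-fold it turned in embryos, with a mean position of 0.24 on the higher and -0.13 on the lower genes. Late pupae kept the order there, at 0.35 and 0.74. With log2(RPKM + 0.1) the mean position of late pupae was 0.53 and 0.54 on the higher and lower genes, so the gap between the sets closed in late pupae. The early pupa libraries disagreed, and replicate 2 sat close to the larvae on both sets.

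**Figure D5:**
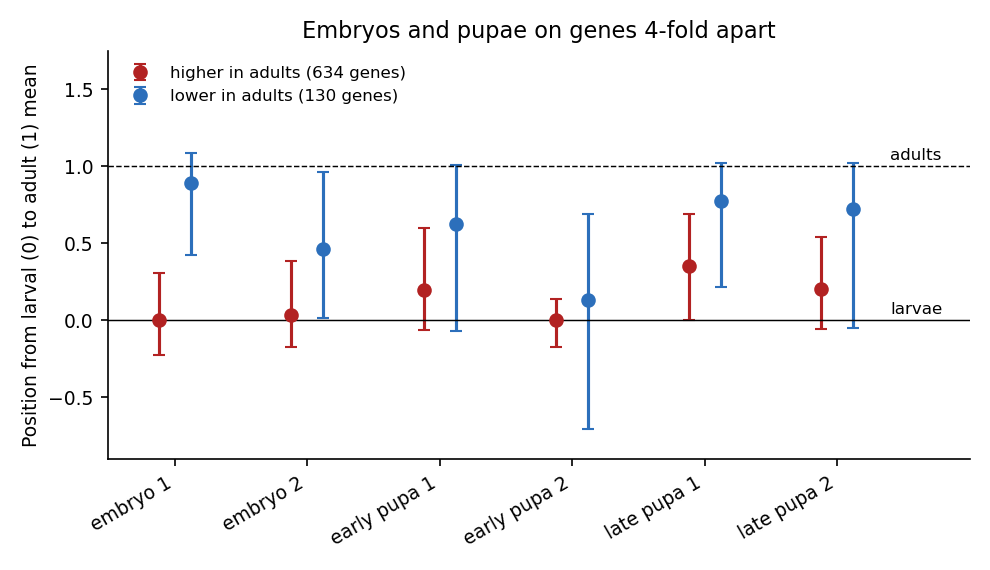
Position of each embryo and pupa library between the larval mean (0, solid line) and the adult mean (1, dashed line) on 634 genes at least 4-fold higher (red) and 130 at least 4-fold lower (blue) in adults. Points are medians over genes and bars run from the lower to the upper quartile. Late pupae lie at 0.35 and 0.20 on the higher and at 0.78 and 0.72 on the lower genes.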

How the data were processed

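The authors deposited RPKM for 20755 gene models in 14 libraries. Per the submitters' processing notes, STAR 2.5.0b and DESeq2 were used, in roles that are not stated. How reads were counted, on which build and with which gene lengths is not given in the sources used here, and no coordinates are reported. All 14 columns were matched to samples by the labels. Of 20755 identifiers, 0 matched the 14329 genes of the reference table, and the gene lists planned for named pathways gave no value.

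A whole-number length was sought for each gene that turned its RPKM into whole reads in all libraries, within the rounding of the sixth significant digit. Some length did so for each of the 18543 genes above 0, but only 13936 lengths are secure, meaning that enough reads and libraries make a chance match unlikely. Lengths and reads of the rest may be wrong by a factor. The named genes all have secure lengths. Reads carry no molecular identifiers, so floors of 3 reads cover counting error only.

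The model was limma's (3.58.1, R 4.3.3) on log2(RPKM + 1), with a variance trend, 4 group means, 8 libraries and no block. The model and the search for whole reads were tried on simulated data. For the model, all simulated libraries shared the same spread for a gene, with no differences within adults or within larvae. Groups of unequal spread, as in these data, were thus not covered. For each comparison up to 2 genes in each direction are named by the size of the log2 difference, taken from calls without overlap that had at least 2-fold change and a mean of at least 10 RPKM on the higher side. Genes named for a single adult group also differed between males and workers, and a gene named once was passed over later. Members, lists and tests were chosen with earlier results of these data known. Alternatives were other pseudocounts, filters, scalings, weights, library sets, groupings and a replicate block, and limma-voom. Counts of genes called under all 4 scalings were added after seeing the data. Python 3.11.15 with pandas 2.3.3 and scipy 1.17.1 was used for the rest.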

Additional observations from a re-analysis of the deposited data

Results flagged for a closer look

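For 11 named genes males and workers stood apart in their difference from larvae. All 11 were named by a rule that required a call or opposite directions between males and workers, so the values describe the genes and test nothing further. The log2 differences, males minus workers, were 11.32 for HSALG008444.1, 9.55 for HSALG009060.1, 7.37 for HSALG003338.2, 3.37 for HSALG003196.2 and 2.74 for HSALG001144.1. Negative ones were -5.09 for HSALG012048.2, -6.74 for HSALG010224.2, -7.66 for HSALG023801.1, -7.68 for HSALG012182.2, -8.47 for HSALG011967.1 and -9.65 for HSALG013889.2.

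Instar 4 and instar 1 stood apart for 8 named genes. Of these, 4 were named because the instars differed, and their log2 differences, instar 4 minus instar 1, are descriptions: 12.29 for HSALG008021.1, 12.09 for HSALG008023.1, 5.0 for HSALG010448.2 and -4.83 for HSALG005764.2. The other 4 were named on other comparisons, and the instars differed by the test (limma, adjusted p at most 0.0119), by -1.68 for HSALG005522.2, -2.91 for HSALG010224.2, -5.58 for HSALG013889.2 and -11.05 for HSALG003196.2. Of all genes tested 44.3% were called between the instars.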

How the results depend on the processing

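Values are total calls by limma unless said otherwise. Beyond smaller sets of genes or libraries, the cause was not tested. Recomputing the 19 named genes under each alternative gave 406 values in all, of which 403 left direction and call as they were, 3 ended the call and 0 reversed it. The 2-fold minimum is among these alternatives, and the naming rule already required it, so its values could not change. The named genes were picked as the largest calls without overlap in the same libraries, so this tally does not speak for the other called genes. The counts of adults against larvae, males against larvae, workers against larvae, males against workers and instar 4 against instar 1 were 2318, 2307, 1577, 635 and 3226 with a minimum mean of 5 RPKM. With all 14 libraries they were 2392 for males against larvae, 1579 for workers against larvae and 412 for males against workers. Adults against larvae gave 2514 with a 2-fold minimum and 1257 with 2 groups of 4 libraries. Males against workers gave 594 with no filter, 1561 under quantile scaling and 1458 with limma-voom. Genes moving in opposite directions numbered 9 with no filter and 31 under quantile scaling, against 15. For males against workers the majority turned to 538 and 730 under median and 684 and 877 under quantile scaling.

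Leaving out each library gave 2650 to 4418 calls for adults against larvae, 2521 to 4356 for males against larvae, 1066 to 3566 for workers against larvae, 170 to 1610 for males against workers, 2811 (without instar 4 replicate 1; 2822 without replicate 2) to 5458 for instar 4 against instar 1, and 4 to 20 for genes moving in opposite directions. Where 1 library remained in a group, its spread was assumed to equal that of the other groups.

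The mean median position of embryos on genes higher in adults, 0.02, was 0.18 with log2(RPKM + 0.1), -0.0905 under median scaling, -0.0612 under quantile scaling and 0.24 at 2-fold. On genes lower in adults it was 0.68, against 0.32 with log2(RPKM + 0.1) and -0.13 at 2-fold. With log2(RPKM + 0.1) late pupae stood at 0.53 on the higher and 0.54 on the lower genes, and early pupae at 0.28 on the higher ones.

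The labels do not say what replicate numbers stand for, and the deviations of libraries with the same number had correlations from -0.16 to 0.02 in 6 pairs of groups. They were therefore not treated as pairs. With the replicate block there were 3879, 3540, 2713, 918 and 4737 calls in the order above and 13 genes moving in opposite directions.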

Other observations

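The table mixes 20317 HSALG identifiers and 438 XLOC identifiers, and 10786 and 345 of them were tested. Among XLOC genes 105 were called higher and 26 lower in adults, or 30.4% and 7.54%, and 28 and 3 changed at least 4-fold. Among HSALG genes 2649 were called higher and 1252 lower, or 24.6% and 11.6%, and 606 and 127 changed at least 4-fold. The median log2 difference was 0.30 over XLOC and 0.13 over HSALG genes. Among the 13936 genes whose resolved length was secure, it was a multiple of 3 in 97.9% of HSALG and 35.7% of XLOC genes, so most of these HSALG lengths read as coding lengths. The median secure length was 1064 bases over HSALG genes called higher in adults, 1011 over those called lower and 1086 over all such HSALG genes tested. These are descriptions with no test.

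Among genes with a mean of at least 100 RPKM over the 8 libraries, 181 of 448 were higher and 93 lower in adults (40.4% and 20.8%). At 1000 RPKM they were 14 and 15 of 36 (38.9% and 41.7%). Of all genes tested 24.7% were higher and 11.5% lower.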
